A study of Mus musculus with 8 samples.

Results

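The 33 genes described here encode lysosomal proteins: acid hydrolases, the activator and transport proteins that work with them, proteins of the lysosomal membrane, and the myeloid lysozyme Lyz2. They were taken from a list of gene symbols, each represented by the probe set with the highest mean over the 8 arrays. Of the 33 listed genes, 32 had a probe set that the platform annotation assigns to that symbol alone, among 18193 such genes on the array. Cd63 was not analysed here. The 32 genes had 76 probe sets, and 22 of them had more than 1.

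Lysosomes are acidic compartments in which hydrolases break down sugar chains, lipids, proteins and nucleic acids that arrive by endocytosis, phagocytosis and autophagy. Most soluble hydrolases carry a mannose 6-phosphate tag, which receptors in the Golgi recognise. Phagocytes such as macrophages and neutrophils are rich in these proteins. Many lysosomal genes carry a DNA element that the transcription factors TFEB, TFE3, TFEC and MITF bind.

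RNA came from spleen cells of leukemic mice with either form of a leukemia fusion protein that joins CBFb, a subunit of core-binding factor, with the tail region of a smooth muscle myosin. The truncated group carried CBFb-SMMHCd179-221 and was sampled 3 weeks after birth. The full-length group carried CBFb-SMMHC and was sampled 2 months after the mutagen ENU, which the labels give for this group alone. Chimera is the label of every sample, but the design text names only the truncated mice so and has the full-length ones as knock-in mice. How many cells carried a fusion is not given in the sources used here. Genotype, ENU and age go together and cannot be told apart. Each genotype had 4 Affymetrix mouse arrays from 2 animals, with 1 array of animal 1 and 3 of animal 2. The comparison asks how expression in spleen cells with the truncated fusion differs from that in cells with the full-length fusion.

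The arrays of an animal did not always resemble each other most. In both genotypes array 1 of animal 2 correlated with the array of animal 1 (Pearson's r over all probe sets, 0.987 truncated and 0.989 full-length) more closely than with the other arrays of its own animal (0.976 for both in the truncated group, 0.954 and 0.953 in the full-length group). Arrays 2 and 3 of animal 2 correlated at 0.997 in each genotype. Full-length arrays 2 and 3 correlated more closely with every truncated array (0.961 to 0.973) than with the full-length arrays numbered 1 (0.946 to 0.954). The 2 arrays numbered 1 and the pair of arrays 2 and 3 are therefore also compared separately below. No array is relabelled.

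The sequences below show where several of these genes carry the element TCACGTG before their start, since the genes of this list are grouped by it later on. Sequences come from RefSeq (GRCm38.p6), read 5′ to 3′ on the strand of the gene, and capitals mark TCACGTG or its reverse complement CACGTGA.
Lamp1 (chr8:13159085-13159160, plus strand): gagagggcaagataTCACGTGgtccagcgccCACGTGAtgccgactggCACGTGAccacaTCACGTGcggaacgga
Mcoln1 (chr8:3500433-3500494, plus strand): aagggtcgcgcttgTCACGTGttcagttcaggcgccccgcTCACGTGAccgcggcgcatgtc
Naglu (chr11:101070006-101070040, plus strand): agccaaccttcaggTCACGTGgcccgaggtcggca
Gla (chrX:134601179-134601247, minus strand): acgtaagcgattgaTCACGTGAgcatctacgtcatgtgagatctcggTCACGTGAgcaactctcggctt
Glb1 (chr9:114401015-114401049, plus strand): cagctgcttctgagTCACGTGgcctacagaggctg
Lamp1, which encodes the major glycoprotein of the lysosomal membrane, had the element at 4 places, from 62 to 16 bases before its start. Gla and Mcoln1 had it at 2 places each, and Naglu and Glb1 at 1 place each.

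Most lysosomal genes had higher values in truncated spleen cells, led by Arsb, Psap, Cd68 and Hexa, each over 3-fold. Of the 32 genes, 29 had a higher mean and 3 a lower mean, whereas 48.4% of all 11386 genes tested had a higher mean. Their median log2 difference, truncated minus full-length, was 0.50, against -0.01 over all genes. In 15 genes all truncated arrays lay above all full-length arrays (10.3% of all genes), and in 1 gene, Mcoln1, all lay below (8.77% of all genes). At an unadjusted p under 0.05 in limma, 12 members had a higher value (8.79% of all genes) and 0 a lower value (5.3% of all genes). All 32 genes passed the filter on low values, and the 15 and the 12 both include Naglu, which passed it through the truncated animals alone. No gene passed an adjusted p of 0.05 in limma (0 of 11386, or 0%), while 1001 genes had a higher and 604 a lower value at the unadjusted p. The smallest adjusted p of a lysosomal gene was 0.0816, for Hexa. Without truncated animal 1 the 12 members numbered 7 (4.94% of all genes). In limma 3 members passed the adjusted p without full-length animal 2 (5.7% of all genes, either direction), 4 without its array 2 (2.92%) and 5 without its array 3 (3.7%). In this bulk RNA, fewer cells of a type and less RNA per cell cannot be told apart.

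**Figure D1:**
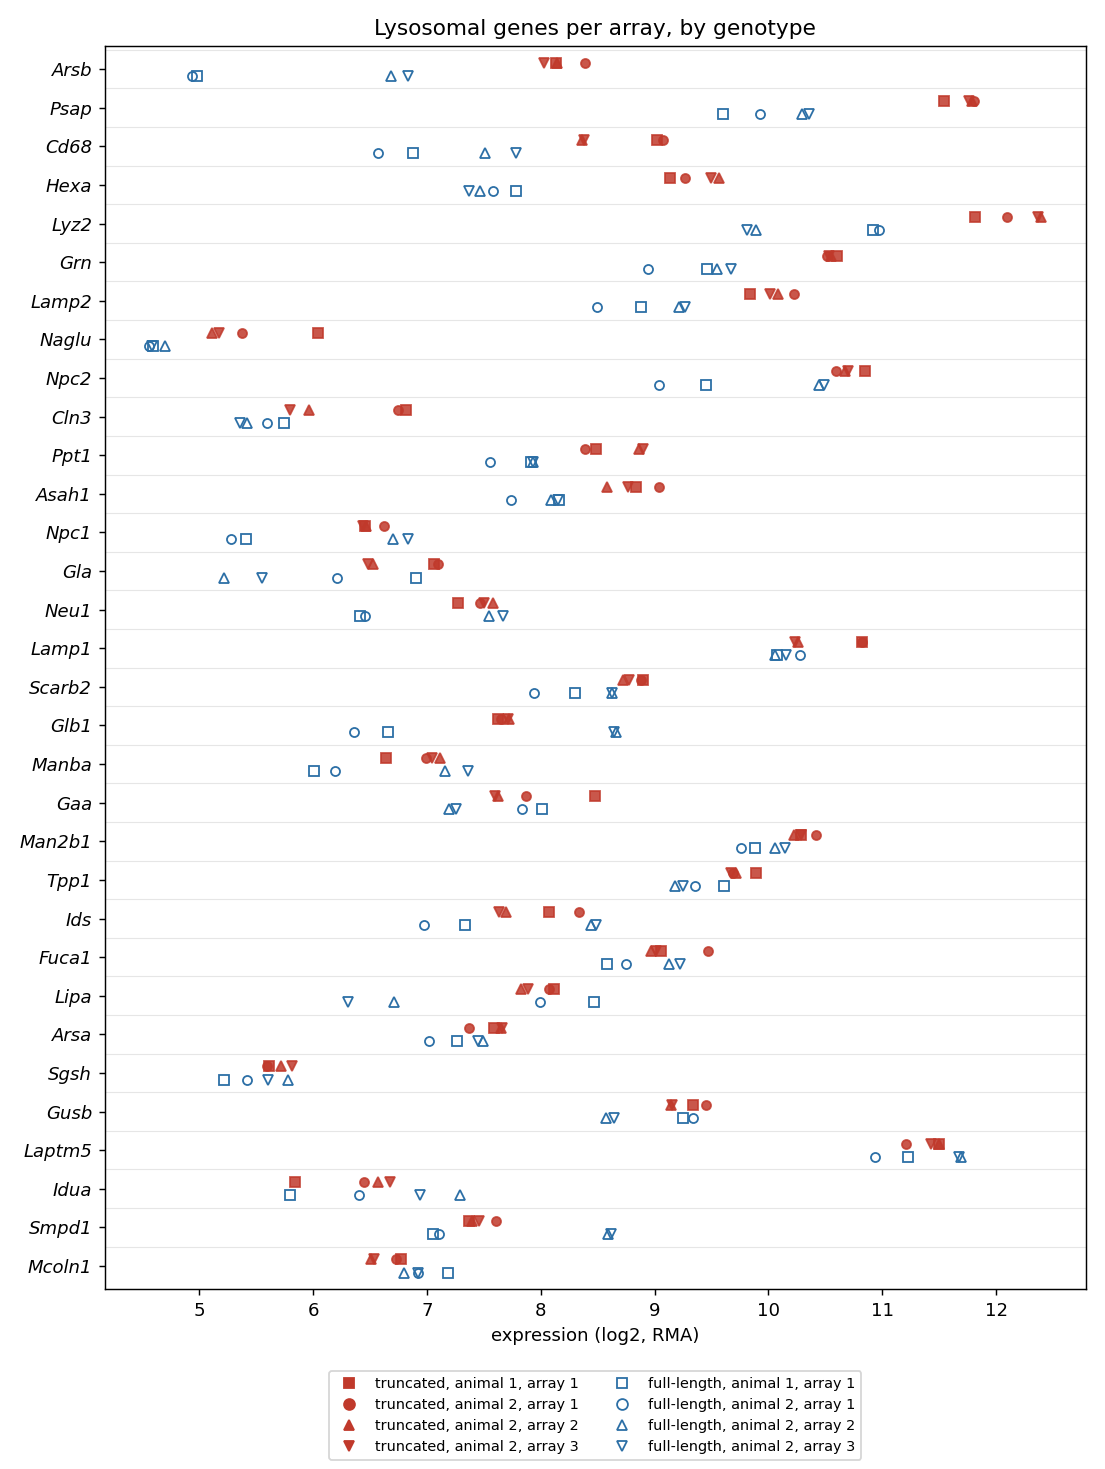
Log2 expression (RMA) of 32 lysosomal genes on each array, with filled red marks for truncated and open blue marks for full-length arrays, and a shape for each animal and array number. Genes are ordered by the difference between genotypes, from Arsb (2.59) at the top to Mcoln1 (-0.35) at the bottom, and the full-length arrays are spread more widely than the truncated arrays in 25 of the 32 genes.

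A fit of all 8 arrays that pairs arrays with the same animal and array number across the genotypes, and treats arrays of 1 animal as separate, gave 584 genes with a higher value (5.13%) and 356 with a lower value (3.13%) at an adjusted p under 0.05. These included 7 of the 32 lysosomal genes, all with higher values in truncated cells: Hexa, Arsb, Ppt1, Psap, Grn, Lamp2 and Lyz2. At an unadjusted p under 0.05 the paired fit had 18 members with a higher value (13.5% of all genes) and 1, Mcoln1, with a lower value (13.8% of all genes). The data do not single out this match by number, since mismatched arrays numbered 1, and mismatched arrays 2 and 3, also correlated across the genotypes. The paired values of the 7 are given beside the results of limma over animals. Limma over animals is the test meant wherever an adjusted p is given without further words. Differences are given ± their standard error, with 2 animals per genotype. Values per array follow the order animal 1, then arrays 1, 2 and 3 of animal 2.

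The glycosidases cleave sugars from glycolipids, glycoproteins and glycosaminoglycans. Of 11 genes, 10 had a higher mean in truncated cells, and the median difference was 0.39. Hexa, the alpha subunit of beta-hexosaminidase, which degrades GM2 ganglioside, stood at 9.13, 9.26, 9.56 and 9.50 (log2) on truncated arrays, against 7.79, 7.58, 7.47 and 7.37 on full-length arrays. The lowest truncated array lay above the highest full-length array by more than 1 log2 unit, and the arrays ranged over 0.43 in the truncated and 0.41 in the full-length group. The animals averaged 9.29 ± 0.22 in the truncated and 7.63 ± 0.22 in the full-length group (SD, n = 2 each), a difference of 1.66 ± 0.25, or 3.15-fold (limma, adjusted p = 0.0816). With pairing the difference was 1.81 (adjusted p = 0.0101).

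Naglu, which removes N-acetylglucosamine from heparan sulfate, stood at 6.04, 5.38, 5.11 and 5.18 on truncated arrays, against 4.59, 4.56, 4.70 and 4.58 on full-length arrays. The groups did not overlap, and the difference was 1.03 ± 0.33 (limma, adjusted p = 0.270). All 4 full-length values lay under their array's median. Man2b1, the lysosomal alpha-mannosidase, also had groups that did not overlap, with 10.29, 10.41, 10.23 and 10.29 on truncated arrays, against 9.88, 9.76, 10.06 and 10.14 on full-length arrays. Its difference of 0.36 ± 0.21 was small (limma, adjusted p = 0.549), and its second probe set differed by -0.22.

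In the other 8 glycosidases the arrays of the genotypes overlapped. Glb1, the beta-galactosidase that is also used as a marker of senescent cells, was at 7.63, 7.65, 7.72 and 7.71 on truncated arrays, against 6.66, 6.36, 8.66 and 8.64 on full-length arrays. The truncated arrays ranged over 0.09, while the full-length arrays fell into a low pair and a high pair on either side of them. Manba (beta-mannosidase), Neu1 (the lysosomal sialidase) and Fuca1 (alpha-fucosidase) had a like layout, with full-length arrays numbered 1 below the truncated range and arrays 2 and 3 within or above it. Gla, the alpha-galactosidase deficient in Fabry disease, was at 7.07, 7.10, 6.52 and 6.48 on truncated arrays, against 6.91, 6.21, 5.22 and 5.55 on full-length arrays, of which arrays 2 and 3 were here the low ones. Neu1 itself was at 7.27, 7.47, 7.58 and 7.51 on truncated arrays, against 6.42, 6.46, 7.55 and 7.67 on full-length arrays, so that the genotypes met only on arrays 2 and 3. Neu1 differed by 0.58, Gla by 0.60, Manba by 0.39, Gaa (acid alpha-glucosidase) by 0.36, Fuca1 by 0.29 and Gusb (beta-glucuronidase) by 0.24. Idua (alpha-L-iduronidase), the glycosidase with a lower mean in truncated cells, differed by -0.13 ± 0.45. The smallest adjusted p of these 8 in limma was 0.546, for Neu1.

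The sulfatases and the sulfamidase Sgsh remove sulfate from glycosaminoglycans and sulfolipids, and all 4 had a higher mean in truncated cells, with a median difference of 0.31. Arsb, which removes sulfate from dermatan and chondroitin sulfate, had the largest difference of all 32 genes. It stood at 8.13, 8.39, 8.15 and 8.03 on truncated arrays, against 4.98, 4.94, 6.69 and 6.84 on full-length arrays. The truncated arrays lay close together, and the full-length arrays numbered 1 lay near the array median, below arrays 2 and 3. The animals averaged 8.16 ± 0.04 in the truncated and 5.57 ± 0.83 in the full-length group (SD, n = 2 each). The difference of 2.59 ± 0.42, or 6.03-fold, had an adjusted p of 0.0855 in limma, and with pairing it was 2.31 (adjusted p = 0.0441). A dimmer probe set of Arsb differed by 1.76, and the dimmest of the 3 by -0.04. The other 3 overlapped between genotypes. Ids (iduronate 2-sulfatase) was at 8.07, 8.34, 7.69 and 7.63 on truncated arrays, against 7.33, 6.97, 8.44 and 8.49 on full-length arrays, where arrays 2 and 3 lay above every truncated array. Ids differed by 0.33, Arsa (arylsulfatase A, which acts on sulfatide) by 0.28 and Sgsh, which acts on heparan sulfate, by 0.25.

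Of the 4 enzymes that act on lipids, ceramide or fatty acyl groups, Ppt1 and Asah1 were higher without overlap (10.3% of all genes). Ppt1, which removes palmitate from proteins, stood at 8.48, 8.38, 8.87 and 8.90 on truncated arrays, against 7.91, 7.55, 7.93 and 7.94 on full-length arrays. Its difference was 0.74 ± 0.23, or 1.67-fold (limma, adjusted p = 0.246), and 0.83 with pairing (adjusted p = 0.0203). Asah1, the acid ceramidase, stood at 8.84, 9.04, 8.58 and 8.77 on truncated arrays, against 8.16, 7.74, 8.09 and 8.15 on full-length arrays, a difference of 0.74 ± 0.22 (limma, adjusted p = 0.230). Smpd1, the acid sphingomyelinase, and Lipa, the lysosomal acid lipase, divided the full-length arrays in opposite ways. Smpd1 was at 7.37, 7.61, 7.39 and 7.46 on truncated arrays, against 7.05, 7.11, 8.59 and 8.61 on full-length arrays, where arrays 2 and 3 were the high ones. Lipa was at 8.12, 8.08, 7.82 and 7.89 on truncated arrays, against 8.46, 7.99, 6.71 and 6.31 on full-length arrays, where arrays 2 and 3 were the low ones. Smpd1 differed by -0.15 ± 0.39 and Lipa by 0.29 ± 0.50. The protease Tpp1, which trims tripeptides from protein ends, was at 9.89, 9.68, 9.71 and 9.67 on truncated arrays, against 9.61, 9.35, 9.18 and 9.25 on full-length arrays. The arrays did not overlap, by a narrow margin, and the difference was 0.35 ± 0.24 (limma, adjusted p = 0.625). Its second probe set differed by -0.20.

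All 3 soluble proteins that are not hydrolases were higher with groups that did not overlap (10.3% of all genes). All 3 had an unadjusted p under 0.05 in limma (8.79% of all genes, higher), and their median difference was 1.14. Psap encodes prosaposin, which is cut into the saposins that present sphingolipids to hydrolases. It stood at 11.54, 11.81, 11.79 and 11.76 on truncated arrays, against 9.60, 9.92, 10.29 and 10.36 on full-length arrays. Every truncated array lay more than 1 log2 unit above every full-length array. The animals averaged 11.66 ± 0.17 in the truncated and 9.89 ± 0.42 in the full-length group (SD, n = 2 each), a difference of 1.77 ± 0.29, or 3.41-fold (limma, adjusted p = 0.0857), and 1.68 with pairing (adjusted p = 0.00887). Its other probe set differed by 1.73.

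Grn, the gene of progranulin, a secreted protein that also supports lysosomal hydrolases, had the narrowest range of the 32 genes on truncated arrays, at 10.60, 10.51, 10.55 and 10.53, against 9.46, 8.95, 9.55 and 9.67 on full-length arrays. It differed by 1.14 ± 0.21, or 2.21-fold (limma, adjusted p = 0.109), and by 1.14 with pairing (adjusted p = 0.0181). The 2 other probe sets of Grn differed by 1.37 and 1.70. Npc2, which hands cholesterol to the membrane protein Npc1, stood at 10.85, 10.59, 10.67 and 10.70 on truncated arrays, against 9.45, 9.04, 10.45 and 10.49 on full-length arrays. Full-length arrays 2 and 3 came just below the truncated arrays, while those numbered 1 lay further below. The difference was 1.03 ± 0.28 (limma, adjusted p = 0.202).

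Of 8 membrane proteins, 7 had a higher mean in truncated cells, and the median difference was 0.58. In 4 of the 7 the groups did not overlap (10.3% of all genes, higher). Cd68, a heavily glycosylated endosomal and lysosomal protein used as a macrophage marker, stood at 9.02, 9.07, 8.37 and 8.38 on truncated arrays, against 6.87, 6.57, 7.51 and 7.78 on full-length arrays. The genotypes were farthest apart on arrays numbered 1 and nearest on arrays 2 and 3. The animals averaged 8.81 ± 0.29 in the truncated and 7.08 ± 0.29 in the full-length group (SD, n = 2 each), a difference of 1.73 ± 0.28, or 3.32-fold (limma, adjusted p = 0.0855). Lamp2, a membrane glycoprotein needed for the fusion of autophagosomes and for chaperone-mediated autophagy, stood at 9.84, 10.22, 10.08 and 10.01 on truncated arrays, against 8.88, 8.49, 9.21 and 9.26 on full-length arrays. Its difference was 1.04 ± 0.23 (limma, adjusted p = 0.148), and 1.08 with pairing (adjusted p = 0.0370). The 3 other probe sets of Lamp2 differed by 1.17, 0.43 and 0.63.

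Cln3, a membrane protein mutated in juvenile Batten disease, differed by 0.89 ± 0.30 with no overlap, at 6.81, 6.75, 5.96 and 5.80 on truncated arrays, against 5.74, 5.60, 5.42 and 5.36 on full-length arrays (limma, adjusted p = 0.290). It was the 1 member whose truncated arrays ranged over more than 1 log2 unit. Scarb2, the receptor that carries glucocerebrosidase to the lysosome, was at 8.89, 8.88, 8.72 and 8.77 on truncated arrays, against 8.30, 7.94, 8.62 and 8.63 on full-length arrays, and differed by 0.49 ± 0.22 with no overlap (limma, adjusted p = 0.406). Npc1, the cholesterol transporter, was at 6.46, 6.62, 6.46 and 6.44 on truncated arrays, against 5.41, 5.28, 6.71 and 6.83 on full-length arrays, where arrays 2 and 3 were again the high pair. Lamp1 was at 10.82, 10.82, 10.26 and 10.23 on truncated arrays, against 10.08, 10.28, 10.06 and 10.16 on full-length arrays, and the genotypes came closest on arrays 2 and 3. Npc1 differed by 0.64, Lamp1 by 0.51 and Laptm5, a lysosomal protein of blood cells, by 0.11, each with overlapping arrays. Mcoln1, the calcium channel that signals to TFEB, had the only groups without overlap in the lower direction, at 6.77, 6.73, 6.51 and 6.53 on truncated arrays, against 7.19, 6.92, 6.80 and 6.92 on full-length arrays. Its difference was -0.35 ± 0.24 (limma, adjusted p = 0.616), and its 2 other probe sets differed by -0.09 and -0.37.

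Lyz2, the lysozyme of macrophages and granulocytes, which cleaves bacterial cell walls, stood at 11.81, 12.09, 12.39 and 12.36 on truncated arrays, against 10.91, 10.97, 9.89 and 9.81 on full-length arrays. In contrast to Arsb and Npc2, full-length arrays 2 and 3 were the ones farthest below the truncated arrays. The difference was 1.48 ± 0.33, or 2.79-fold (limma, adjusted p = 0.154), and 1.77 with pairing (adjusted p = 0.0459). The probe sets of its paralog Lyz1 differed by 1.23, 1.08 and 0.45. Those with 1.23 and 1.08 end in x_at, and probes for the paralogs may match the RNA of both. The one with 0.45 was dim, between 3.28 and 4.55, under the median of every array. Without Lyz2 the median difference of the lysosomal genes was 0.49.

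**Figure D2:**
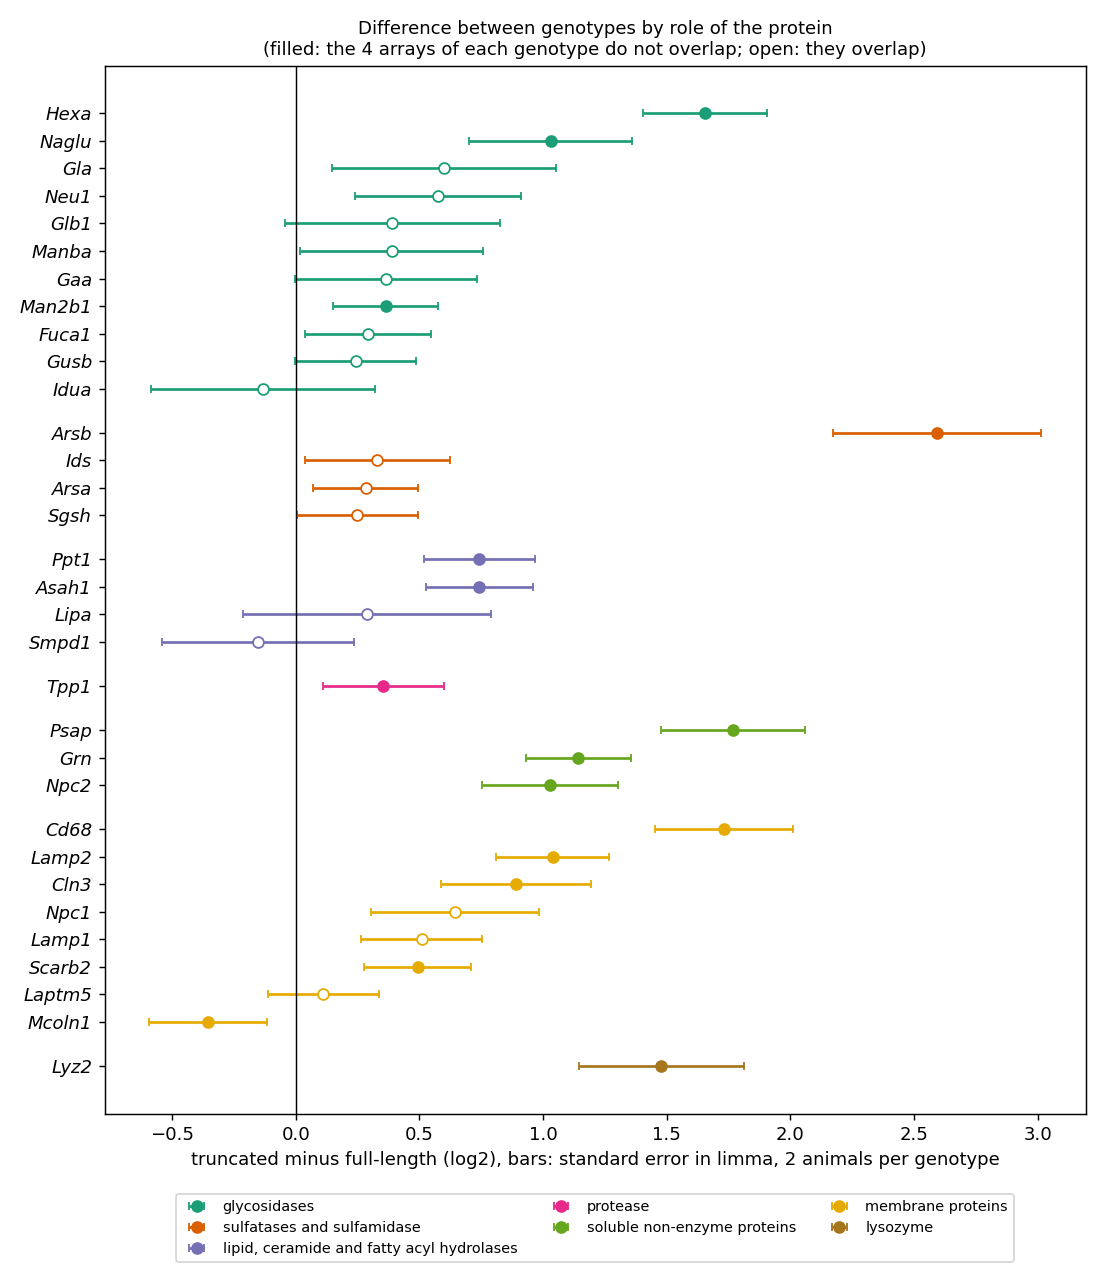
Difference in log2 expression, truncated minus full-length, of 32 lysosomal genes grouped by role, with bars of ± 1 standard error in limma from 2 animals per genotype. Filled points mark the 16 genes whose arrays do not overlap between genotypes, of which Mcoln1 alone lies left of 0, and Arsb (2.59), Psap (1.77) and Cd68 (1.73) lie farthest to the right.

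The size of these differences depended on which arrays were set against each other. The median over the 32 genes was 0.74 on arrays numbered 1 and 0.30 on arrays 2 and 3 of animal 2, against 0.00 and -0.02 over all genes. In 21 genes the truncated group was higher in both sets, where 27.4% of all genes were, and in Mcoln1 it was lower in both (30% of all genes). In the remaining 10 the sign differed between the sets, as in 42.6% of all genes. Glb1 differed by 1.13 on arrays numbered 1 and by -0.93 on arrays 2 and 3. Smpd1 differed by 0.41 and -1.18, Ids by 1.05 and -0.80, and Npc1 by 1.20 and -0.32 in the same order. Lipa ran the opposite way, with -0.13 on arrays numbered 1 and 1.35 on arrays 2 and 3. The other genes of this kind were Manba, Neu1, Fuca1, Idua and Laptm5. Hexa (1.51 and 2.11), Psap (1.91 and 1.45) and Arsb (3.30 and 1.33) differed by more than 1 log2 unit in both sets, as did Lyz2 (1.01 and 2.53).

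**Figure D3:**
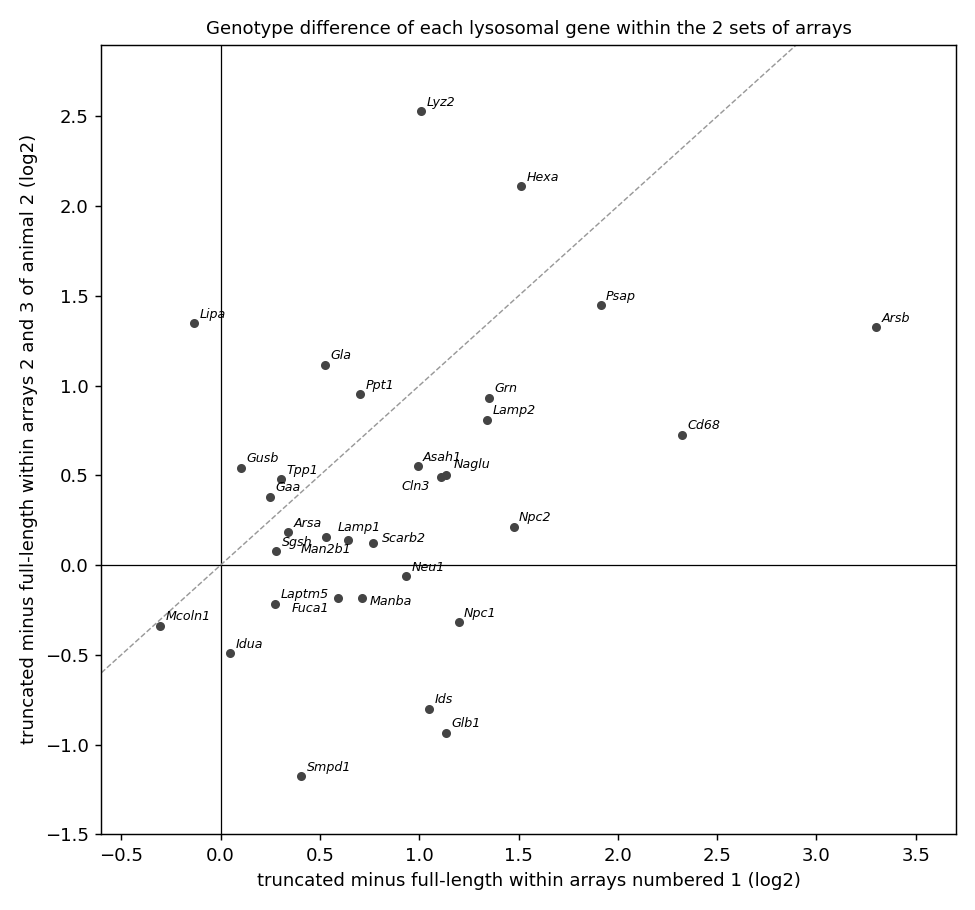
Difference in log2 expression, truncated minus full-length, of 32 lysosomal genes on arrays 2 and 3 of animal 2 (vertical axis) against that on arrays numbered 1 (horizontal axis), with a dashed line of equal values. In the upper right lie the 21 genes higher in truncated cells in both sets, and the 9 genes below the horizontal line on the right, among them Glb1, Ids and Npc1, together with Lipa in the upper left, change sign.

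The sets lay farther apart in the full-length group. The range over 4 arrays was wider in the full-length than in the truncated group in 25 of the 32 genes (61.5% of all genes), with a median range of 0.34 in truncated and 0.76 in full-length arrays, against 0.44 and 0.55 over all genes. It exceeded 1 log2 unit in 1 gene of the truncated group (10.6% of all genes) and in 13 genes of the full-length group (22.2% of all genes). In 17 genes the distance between the 2 sets of full-length arrays was larger than the difference between genotypes (57.3% of all genes). Full-length arrays 2 and 3 lay above those numbered 1 in 22 of the 32 genes and below them in 10. No such count was made over all genes.

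Markers of other cell types divided the arrays too. Of 20 monocyte and macrophage genes listed, 16 were tested, and all 16 had a higher mean in truncated cells, with a median difference of 1.48. In limma 11 of them had an unadjusted p under 0.05 (8.79% of all genes, higher). The summed signal of the 18 on the array, on the linear scale, lay between 5690 and 7400 on truncated arrays, against 2135 to 2717 on full-length arrays. C1qa, a complement subunit made by macrophages, differed by 2.10, Adgre1 (F4/80) by 1.83 and Mrc1 (the mannose receptor) by 2.87. Timd4, a marker of resident macrophages, was not tested and stayed at or under 4.03 on every array. All 9 tested genes of secondary and tertiary neutrophil granules and all 5 of primary granules had higher means, with median differences of 2.97 and 4.68. These medians were 3.65 and 6.46 on arrays numbered 1, and 1.6 and 1.5 on arrays 2 and 3. The primary granule genes summed to 10799 to 15992 on truncated arrays. On full-length arrays the sum was 167.5 and 159.1 on those numbered 1 and 6105 and 6285 on arrays 2 and 3. The part of these cell types in the lysosomal differences was not tested.

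The 12 erythroid genes on the array had a summed signal of 10012 and 10360 on truncated arrays numbered 1. On truncated arrays 2 and 3 it was 5245 and 5370. On full-length arrays it was 20740 and 22154 on those numbered 1 and 4859 and 5055 on arrays 2 and 3. The 6 mast cell genes on the array summed to 4399 to 5833 on truncated arrays. On full-length arrays the sum was 549.6 and 605.8 on those numbered 1 and 11106 and 11587 on arrays 2 and 3. These genes did not go together: of 5 tested, 2 had a higher and 3 a lower mean in truncated cells, with a median difference of -0.57. Cpa3 was at 11.92, 11.67, 12.18 and 12.13 on truncated arrays, against 7.11, 6.90, 11.84 and 11.91 on full-length arrays, so the genotypes overlapped. It differed by 3.29, with 4.79 on arrays numbered 1 and 0.28 on arrays 2 and 3. Tpsab1 was at 4.68, 4.74, 4.45 and 4.73 on truncated arrays, against 7.20, 7.48, 6.51 and 6.45 on full-length arrays. Of the B cell list 4 of 8 genes were tested, and their median lay between 5.32 and 6.56 on truncated arrays, against 4.80 to 5.25 on full-length arrays, while the medians over all probe sets lay between 4.71 and 4.78. The part of these cells in the values of Glb1, Smpd1, Lipa and the others was not tested. Leaving out both full-length arrays numbered 1, which are rich in erythroid RNA, leaves 1 full-length animal, and 21 lysosomal genes then had a higher and 11 a lower mean, with a median difference of 0.55.

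Other genes of the pathway, none of them among the 33, were taken from lists by function. The list of lysosomal cathepsins, proteases that digest protein in the lysosome, also holds Lgmn, another lysosomal protease, and Cst3, a cathepsin inhibitor. This list was nearest to the members: 11 of 14 had a higher mean, and the median difference was 0.65. At an unadjusted p under 0.05 in limma, 6 were higher (8.79% of all genes), Cst3 (0.73) among them, and 0 were lower (5.3%). Ctsl differed by 1.83 (limma, adjusted p = 0.0855), Ctsc, which activates granule proteases, by 2.57 and Ctss by 0.93. The difference of Ctsc was 3.80 on arrays numbered 1 and 0.57 on arrays 2 and 3. Of 21 other hydrolases and activators, 8 had a higher and 2 a lower value at that p, with a median of 0.20. Gm2a, the activator that lifts GM2 ganglioside for the enzyme containing Hexa, stood at 8.97, 9.01, 9.34 and 9.42 on truncated arrays, against 7.76, 7.48, 8.15 and 8.28 on full-length arrays, a difference of 1.25. Galns, a sulfatase of keratan sulfate, differed by 1.23, and Plbd1, a phospholipase B-like protein, by 1.69.

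The lists for the membrane, the acid pump and protein delivery lay nearer to 0. Their counts stand beside 8.79% of all genes higher and 5.3% lower at an unadjusted p under 0.05 in limma. Of 23 other membrane and transport proteins, 3 had a higher and 0 a lower value at that p, with a median of 0.01. The 3 were Slc15a3 (1.84), Laptm4b (1.18) and Slc11a1 (1.08), the metal transporter of phagosomes. Slc15a3 differed by 2.78 on arrays numbered 1 and by 0.20 on arrays 2 and 3. Of 16 subunits of the vacuolar proton pump, 2 had a higher value and 0 a lower one, with a median of 0.06. These were Atp6v1a (1.22) and Tcirg1 (0.93). Tcirg1 overlapped between genotypes, and differed by 1.34 on arrays numbered 1 and by 0.03 on arrays 2 and 3. Of 24 genes for the delivery of hydrolases, 4 were higher and 0 lower, with a median of 0.16. Sort1, the sortilin receptor that carries prosaposin and progranulin among its cargo, stood at 8.58, 8.34, 8.18 and 7.96 on truncated arrays, against 6.58, 6.75, 6.82 and 6.80 on full-length arrays. Its arrays did not overlap, and it differed by 1.69 ± 0.26 (limma, adjusted p = 0.0816).

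**Figure D4:**
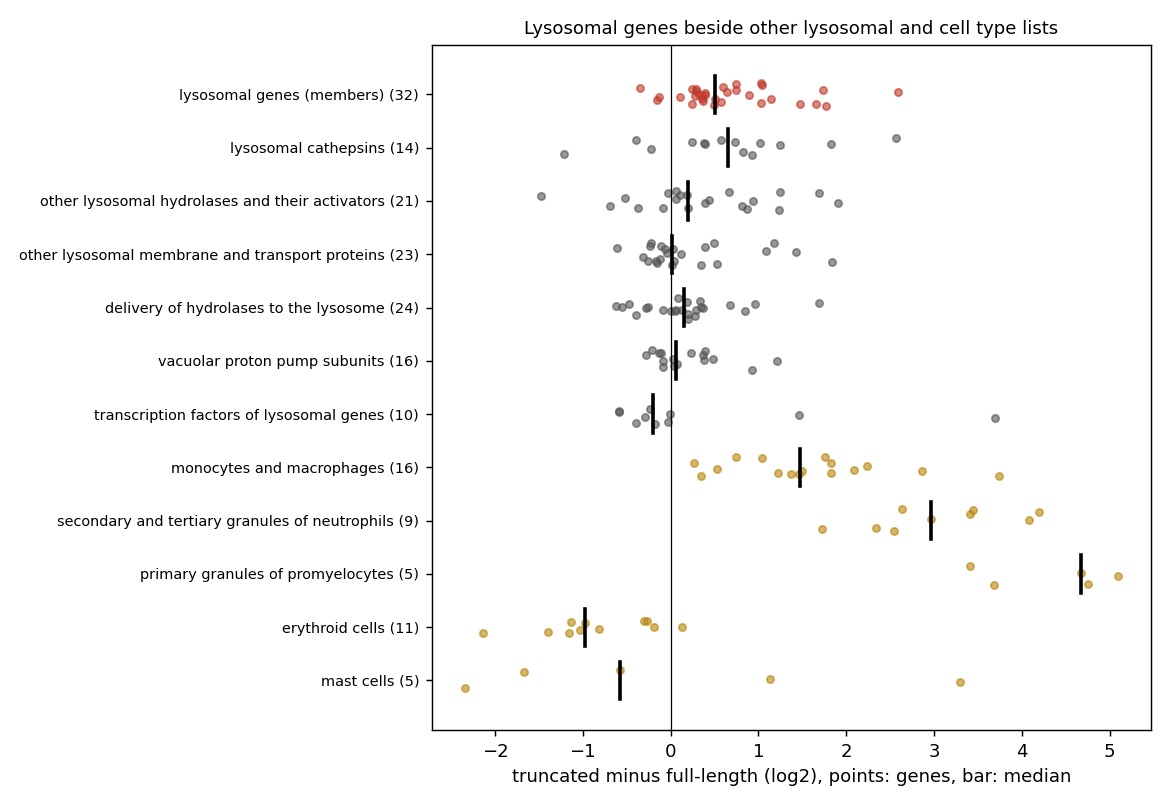
Difference in log2 expression, truncated minus full-length, of each tested gene of 12 lists (number of genes in brackets), with a black bar at the median. The lysosomal members (red, median 0.50) and the cathepsin list (0.65) lie right of the proton pump (0.06) and of other membrane proteins (0.01). The monocyte and granule lists (gold) lie farther right.

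Among 10 tested transcription factors and regulators of lysosomal genes, 2 had a higher and 8 a lower mean, with a median of -0.20. At an unadjusted p under 0.05 in limma, 1 was higher (8.79% of all genes) and 1 lower (5.3%). Tfec, a relative of TFEB found mainly in macrophages and osteoclasts, was at 8.10, 8.35, 7.97 and 8.02 on truncated arrays, against 3.43, 3.10, 6.47 and 6.62 on full-length arrays. All truncated arrays lay above all full-length arrays, and full-length arrays numbered 1 lay over 3 log2 units below arrays 2 and 3. The difference was 3.69 ± 0.64 (limma, adjusted p = 0.0989). Tfeb differed by -0.01 and Tfe3 by -0.03, and Mitf by 1.46, with 6.73, 7.08, 6.61 and 6.35 on truncated arrays, against 3.81, 3.45, 8.32 and 8.29 on full-length arrays; these 3 were named after their values were seen. Zkscan3, a repressor of autophagy genes, differed by -0.59, and Max by -0.59.

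The element printed above was searched on both strands from 250 bases before to 50 after each gene's start, in 31 of the 33 genes that had a RefSeq promoter. TCACGTG was found in 9 of them (29.0%), against 4.29% of 27025 genes. Besides the 5 shown, these were Arsa, Cln3, Gaa and Sgsh. The shorter CACGTG, which TCACGTG contains, was in the same 9 and in 8.09% of all genes, and the longer GTCACGTG was in 8 and in 2.55% of all genes. The 9 genes with TCACGTG had a median difference of 0.39, from -0.35 (Mcoln1) to 1.03 (Naglu). The 21 measured genes without it had a median of 0.49. For GTCACGTG the median was 0.45 in the 8 genes with it and 0.44 in the 22 without it. Arsb, Psap, Hexa, Cd68, Grn and Lyz2 had no TCACGTG in this window. Lamp1, with 4 places, differed by 0.51. Mcoln1, with 2, was the only one of the 9 with a lower mean in truncated cells. The part of the element in these differences was not tested.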

How the data were processed

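Per the labels, biotin-labelled total RNA was measured on Affymetrix mouse arrays. The deposited table holds values on a log2 scale for 45101 probe sets on 8 arrays. The submitters' processing notes name RMA without a version. The range of the values gave the log base. RMA draws dim values together, which understates differences of dim genes. In the platform annotation 34945 probe sets had 1 gene, 932 several and 9160 none, and 64 were controls. Arrays were averaged per animal, since the labels do not say whether arrays of an animal were separate extractions. Each gene was represented by its brightest probe set, and the 11386 genes with at least 2 of 4 animals above the median over all probe sets were kept, all 32 members among them. Genotypes were compared with limma 3.58.1 in R 4.3.3 (2 residual and 3.25 prior degrees of freedom) with Benjamini-Hochberg adjustment at 0.05. The fit was tested on simulated data. The number of arrays limits the precision.

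Deviations of same-numbered arrays from their group means correlated at 0.30, 0.14, 0.23 and 0.21 across the genotypes. Mismatched arrays of the same set also correlated, at 0.16 and 0.12 for those numbered 1 and 0.22 and 0.23 for arrays 2 and 3. The check therefore shows that array sets share something, and does not single out the match by animal and array number. A fit with the animal and array number as a replicate block is given where it changes a call. The labels do not say what the numbers share, and the pairing comes from this check. Alternatives in replication unit, probe set, filter, prior, scaling and arrays left out are given in the closing section. All members are named, and of each other list up to 3 genes with the smallest p. The members and lists were chosen with earlier results of these data known. Probe sets of Gaa, Grn, Laptm5, Lipa, Lamp2 and Mcoln1 end in s_at or x_at and can match related sequences.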

Additional observations from a re-analysis of the deposited data

Results flagged for a closer look

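Chance flags about 1 in 20 groups of this size if the arrays are independent, which arrays of 1 animal need not be. Of 64 groups of 4 arrays, 4 held an array far from the others. All 4 involved array 1 of animal 2. In the truncated group, Fuca1 stood at 9.47 on this array, against 8.97 to 9.05 on the others (gap over range, 0.835), and Npc1 at 6.62, against 6.44 to 6.46 (0.875). In the full-length group, Asah1 stood at 7.74, against 8.09 to 8.16 (0.841), and Ppt1 at 7.55, against 7.91 to 7.94 (0.935). Without full-length array 1 of animal 2, 11 lysosomal genes had a higher value at an unadjusted p under 0.05 in limma (5.75% of all genes). With all arrays there were 12 (8.79% of all genes).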

How the results depend on the processing

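A total of 19 alternatives were run, with the means of all probe sets, no filter and a robust prior among them. The counts of genes, higher then lower, at an adjusted p under 0.05 were 0 and 0 in the comparison as reported, 264 and 81 with the animal as a random block, 584 and 356 with the replicate block, 1674 and 1399 with 1 array per animal, 1 and 1 with each array centred, and 0 and 1 with all 4 animals above the median. Leaving out 1 animal or array gave 0 to 448 genes higher and 0 to 187 lower. Members passing this threshold, with the share of all genes in either direction, numbered 0 (0%) as reported and 7 (8.26%) with the replicate block. They numbered 19 (26.9%) with 1 array per animal and 3 (Hexa, Psap and Grn, 3.03%) with the random block. Without array 2 of full-length animal 2 they numbered 4 (2.92%), and without its array 3 they numbered 5 (3.7%). At this threshold the replicate block changed no call of a member beyond the 7. At the unadjusted p, 12 members were higher as reported (8.79% of all genes), 18 with the replicate block (13.5%) and 22 with 1 array per animal (18%). Without 1 array of animal 2 there were 11 to 14 (5.75% to 10.5%). The lower members numbered 0 as reported (5.3%) and 1, Mcoln1, with the replicate block (13.8%). Without 1 array of animal 2 there were 0 (2.78% to 8.31%). The median difference was 0.74 with 1 array per animal, against 0.50. In the leave-outs of 1 animal or 1 array it was 0.42 to 0.65. Of 32 members, 19 kept their direction in every alternative that gave a value, and 13 did not. Without both full-length arrays numbered 1 Glb1 was at -0.99, Ids at -0.49, Manba at -0.41, Npc1 at -0.28, Laptm5 at -0.24, Neu1 at -0.21, Fuca1 at -0.073 and Sgsh at -0.031. With 1 array per animal Idua was at 0.048, Smpd1 at 0.41 and Lipa at -0.13. In the leave-outs Gaa ranged from -0.026 to 0.76, Gla from -0.022 to 1.22, Glb1 from -0.23 to 1.01, Idua from -0.67 to 0.41, Laptm5 from -0.013 to 0.22, Lipa from -0.44 to 1.02, Manba from -0.059 to 0.84 and Smpd1 from -0.68 to 0.37. These alternatives use fewer or other arrays, and the cause was not tested. Naglu, which lies near the array median, gave no value in 3 of the alternatives and Gla in 1.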
